A study of Mus musculus with 12 samples.

Results

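The genes described here are 10 genes of de novo lipogenesis, the route from cytosolic acetyl-CoA to palmitate, measured by RNA sequencing in 3T3-L1 adipocytes after knockdown of Zfp407. They were chosen by name, with earlier results of these data known: Acly, Acss2, Acaca, Acacb, Fasn, Me1, Mlxipl, Mlx, Thrsp and Mid1ip1. Each name has 1 row among the 39248 rows of the deposited table, and all 10 passed the filter of a mean of at least 1 FPKM (sequenced fragments divided by transcript length in kilobases and by the library's mapped fragments). 3T3-L1 is a clonal mouse line of fibroblast-like preadipocytes that stores fat once differentiated in culture. The control arm (6 libraries) received a control siRNA and the knockdown arm (6 libraries) received an siRNA against Zfp407, a zinc finger gene. Both arms were electroporated with 0.75 nmol of siRNA at 2 days after differentiation, and every library came from an electroporation of its own. The knockdown arm holds 3 libraries for each of 2 siRNAs, but the table's columns do not mark the siRNA, so the arm was treated as 1 group. P-values therefore measure the spread between electroporations of 1 line, which in the knockdown arm also holds any difference between the 2 siRNAs.

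De novo lipogenesis turns surplus carbohydrate into fat. Citrate leaves the mitochondrion and is split by ATP citrate lyase into acetyl-CoA, acetyl-CoA carboxylase makes malonyl-CoA, and fatty acid synthase extends the chain to palmitate with NADPH that malic enzyme and the pentose phosphate pathway supply. The genes are activated together by SREBP1c, which insulin and LXR induce, and by ChREBP (the product of Mlxipl), which binds DNA with its partner MLX when glucose is plentiful. In cultured adipocytes the pathway is switched on during differentiation.

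Zfp407 itself checked the labels. Its FPKM lay between 2.70 and 3.16 in the control arm and between 1.604 and 2.13 in the knockdown arm, the arms did not overlap, and the mean fell by 36.9%. Each library's FPKM values summed to between 2772929 and 3748488, and the absolute depth is unknown because FPKM holds no read totals. Nuclear protein-coding genes took 16.6% ± 1.2 of summed FPKM in the control arm and 14.8% ± 0.458 in the knockdown arm (SD over 6 libraries), so results were also computed after scaling to those genes. In low rows (mean under 0.5 FPKM) the worth of 1 read was unequal in the 2 arms, beyond 0.01 in log2 units, for 313 of 914 rows. Within an arm it did so in 5 of 421 control rows and 4 of 466 knockdown rows. At its 90th percentile this inequality of the arms was 0.248, with differences of 0.5 or more left out. A change of that size in 1 row cannot be told apart from this term of the authors' values, and members were therefore also tested against a minimum fold of 1.2.

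The promoters of 5 of the genes are shown first, chosen for their place in the results below. Thrsp, Acss2 and Acly were the 3 genes that passed against the minimum fold, Fasn encodes the synthase itself, and Mlxipl encodes the pathway's glucose-sensing factor and has a pair of start sites. Sequences are from RefSeq on GRCm38.p6, 250 bases before to 50 after the start, 5′ to 3′ on the gene's strand. Capitals mark matches, on either strand, to the CCAAT box (CCAAT), the GC box (GGGCGG), the E-box (CACGTG) and a sterol regulatory element (TCACNCCAC).
Thrsp (chr7:97417501-97417800, minus strand): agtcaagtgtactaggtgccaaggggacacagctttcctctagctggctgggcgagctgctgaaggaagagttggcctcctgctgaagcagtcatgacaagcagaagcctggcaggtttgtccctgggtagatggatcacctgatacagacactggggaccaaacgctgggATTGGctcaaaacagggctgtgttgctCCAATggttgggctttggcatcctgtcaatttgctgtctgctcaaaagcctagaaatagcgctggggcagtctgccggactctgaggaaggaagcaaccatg
Acss2 (chr2:155517793-155518092, plus strand): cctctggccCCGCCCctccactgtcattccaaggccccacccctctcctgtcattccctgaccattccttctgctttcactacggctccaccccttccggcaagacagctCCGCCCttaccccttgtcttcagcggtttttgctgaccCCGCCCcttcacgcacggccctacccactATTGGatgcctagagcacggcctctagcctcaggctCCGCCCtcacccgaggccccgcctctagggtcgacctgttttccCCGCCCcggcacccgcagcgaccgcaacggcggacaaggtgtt
Acly (chr11:100527951-100528250, minus strand): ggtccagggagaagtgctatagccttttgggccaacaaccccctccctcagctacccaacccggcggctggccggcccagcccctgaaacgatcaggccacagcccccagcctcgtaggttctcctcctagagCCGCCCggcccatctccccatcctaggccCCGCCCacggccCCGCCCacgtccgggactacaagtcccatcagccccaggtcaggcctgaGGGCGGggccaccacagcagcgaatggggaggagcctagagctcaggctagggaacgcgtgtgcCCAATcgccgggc
Fasn (chr11:120824498-120824797, minus strand): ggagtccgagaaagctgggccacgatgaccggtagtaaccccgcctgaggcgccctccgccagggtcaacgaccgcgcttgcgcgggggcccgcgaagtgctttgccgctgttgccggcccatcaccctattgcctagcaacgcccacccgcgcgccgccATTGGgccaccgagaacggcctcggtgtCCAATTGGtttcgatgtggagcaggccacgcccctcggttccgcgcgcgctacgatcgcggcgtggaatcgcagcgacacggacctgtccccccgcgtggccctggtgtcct
Mlxipl upstream start (chr5:135089640-135089939, plus strand): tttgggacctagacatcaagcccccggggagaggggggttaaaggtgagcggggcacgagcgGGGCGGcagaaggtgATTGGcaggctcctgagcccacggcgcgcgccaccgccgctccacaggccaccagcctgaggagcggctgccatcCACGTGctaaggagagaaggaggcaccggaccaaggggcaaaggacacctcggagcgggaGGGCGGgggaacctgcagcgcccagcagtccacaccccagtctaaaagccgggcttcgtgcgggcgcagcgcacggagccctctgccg
Mlxipl downstream start (chr5:135106641-135106940, plus strand): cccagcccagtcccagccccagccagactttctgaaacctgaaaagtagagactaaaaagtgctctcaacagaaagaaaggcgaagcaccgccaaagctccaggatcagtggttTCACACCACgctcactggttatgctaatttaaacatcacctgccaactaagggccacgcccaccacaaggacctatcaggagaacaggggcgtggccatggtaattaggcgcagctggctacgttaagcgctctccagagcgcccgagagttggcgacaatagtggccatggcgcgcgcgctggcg

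Fasn and Thrsp both carried pairs of CCAAT matches on opposite strands close to the start. In Thrsp they began 79 and 52 bases before it. In Fasn 1 began 90 bases before it, and a further 2 overlapped in a palindrome of which the first began 62 bases before it. Acly and Acss2 instead carried 4 and 5 GC boxes and 1 CCAAT each. All 10 genes matched the RefSeq table, with 12 windows between them. The windows of Acaca (from 84195188) and Acacb (from 114165268) lie inside the spans of their rows, which begin at 84129672 and 114146328. CCAAT stood in 8 of these 12 windows against 37.4% of all 32851 windows in the table, and the GC box in 5 of 12 against 35.7%. The E-box, the core that MLX dimers recognise, stood in 2 of 12 windows against 7.15% of all: the upstream Mlxipl window and the Mlx window. The sterol regulatory element pattern stood in 1 of 12, the downstream Mlxipl window, against 1.24% of all. A carbohydrate response element pattern, a pair of exact E-boxes with 5 bases of any kind between them, stood in none of the 32851 windows. These matches are descriptions of letters in short windows, and enhancers farther away, such as those known for lipogenic genes, lie outside them.

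All 6 enzyme genes fell after Zfp407 knockdown, and so did Thrsp, a small lipogenic regulator. Of the 10 genes 7 fell, 1 rose (Mlx) and 2 did not pass. Over the 14706 rows tested 36.4% passed (limma, adjusted p under 0.05), of which 24.8% of rows fell and 11.6% rose. Among rows with a protein-coding symbol 29% fell and 9.21% rose, and with a mean of at least 10 FPKM as well, 31.3% fell. The median log2 fold change of the 10 genes was −0.38 against −0.05 over all rows. The arms did not overlap for 5 genes, all lower in the knockdown arm, where 13.9% of all rows were lower without overlap, 5.51% were higher and 19.5% were either. Against the minimum fold of 1.2 the count was 3 genes lower, with 3.69% of all rows lower, 2.13% higher and 5.82% either by that test. The genes' summed level fell from a range of 667 to 762 FPKM in control libraries to one of 492 to 597 FPKM in knockdown libraries. In bulk RNA, fewer cells of a type and less RNA per cell cannot be told apart.

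**Figure D1:**
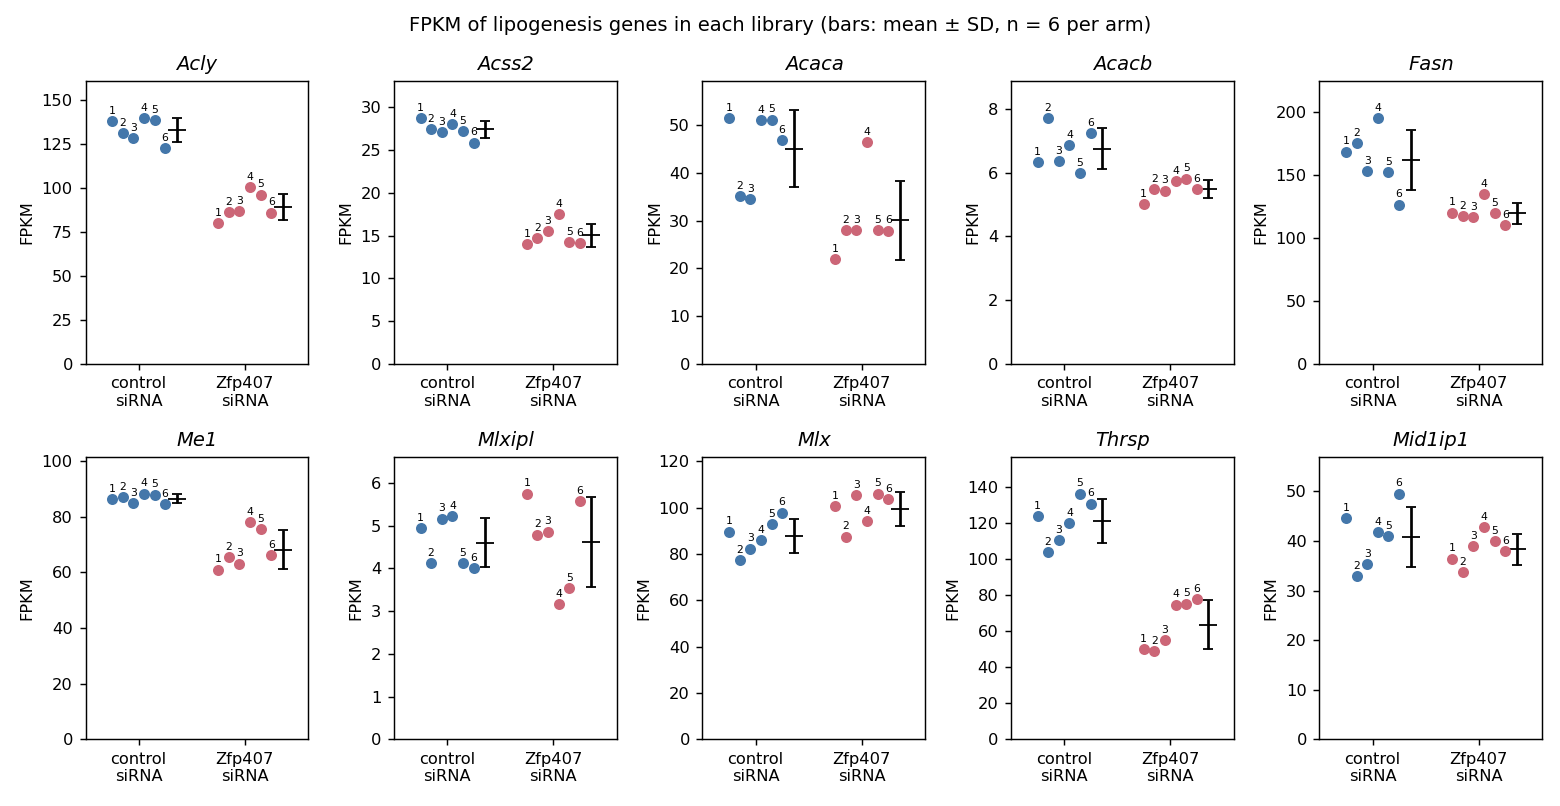
FPKM of each of the 10 genes in every library, control siRNA in blue and Zfp407 siRNA in red, with library numbers above the points and mean ± SD at the right of each arm (n = 6). The arms separate for Acly, Acss2, Acacb, Me1 and Thrsp and overlap for the other 5 genes; 1 knockdown library (number 4) reaches the control range for Acaca.

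The mRNAs of both enzymes that supply cytosolic acetyl-CoA fell. Acly (XLOC_006098, chromosome 11, 100476350 to 100528000) encodes ATP citrate lyase, which cleaves exported citrate. Control libraries 1 to 6 held Acly at 138, 131, 128, 139.8, 139 and 122 FPKM. In knockdown libraries 1 to 6 it was 80.0, 86.0, 86.7, 100.4, 96.2 and 85.9. Every knockdown library lay below every control library, with a mean that fell by 32.95%, a log2 fold change of −0.57 (SE 0.06) and a limma adjusted p of 1.38e-05.

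Acss2 (XLOC_018546, chromosome 2, 155490379 to 155594955) encodes the cytosolic and nuclear acetyl-CoA synthetase, which makes acetyl-CoA from acetate instead. Its control libraries read 28.8, 27.5, 27.1, 28.1, 27.2 and 25.9 FPKM. Its knockdown libraries read 14.0, 14.7, 15.5, 17.5, 14.2 and 14.1 FPKM, so the highest knockdown value stayed well under the lowest control value. The mean fell by 45.3%, with a log2 fold change of −0.83 (SE 0.05, limma adjusted p = 2.27e-07). Only 1.43% of all rows tested had a log2 fold change as low or lower.

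Acss2 fell further than Acly. The ratio of Acss2 to Acly within a library, which does not depend on how that library was scaled, was 0.206 ± 0.00643 in the control arm and 0.169 ± 0.0112 in the knockdown arm (SD, 6 libraries each). It lay at or above 0.196 in every control and at or below 0.178 in every knockdown library (log2 difference −0.29, exact permutation p = 0.00216, the smallest this design can give, two-sided; 0.00649 adjusted over the 6 ratios computed). The term between arms given above can differ from row to row, so a ratio of 2 rows is not free of it, and the size of this difference is close to its 90th percentile. The span of the Acss2 row is wider than the annotated gene and holds 7 further rows, of which Gss, Ggt7 and 4930471I20Rik had a mean of at least 1 FPKM. One of them, 4930471I20Rik, fell as well, from 3.37 ± 0.594 to 1.77 ± 0.597 FPKM, while Gss had values of 14.9 ± 1.25 and 13.2 ± 1.35 (limma adjusted p = 0.0899). How the authors' estimate divided reads among these rows was not tested.

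Carboxylation to malonyl-CoA, the committed step, is carried out by a pair of enzymes. Acaca (XLOC_004432, chromosome 11, 84129672 to 84401655) encodes the cytosolic ACC1 that feeds fatty acid synthesis. Its values fell into separate levels within each arm. Control libraries 1, 4, 5 and 6 read 51.5, 51.0, 51.15 and 46.9 FPKM, and control libraries 2 and 3 read 35.1 and 34.5 FPKM. Knockdown libraries 2, 3, 5 and 6 read 27.97, 27.95, 27.95 and 27.9 FPKM, library 1 read 21.9 FPKM and library 4 read 46.4 FPKM. The arms thus overlapped through knockdown library 4 alone, the other 5 lying below the lowest control. The mean fell by 33.35% (log2 fold change −0.59, SE 0.16, adjusted p = 0.0146 by limma, and 0.0152 unadjusted by exact permutation), and leaving out knockdown library 4 gave a log2 fold change of −0.72. The authors' deposited table marks the Acaca row as a failed test, one of 652 rows (1.66%) so marked. Against the minimum fold Acaca did not pass (limma treat adjusted p = 0.335).

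Acacb (XLOC_025918, chromosome 5, 114146328 to 114250763) encodes ACC2, whose malonyl-CoA at the outer mitochondrial membrane holds back fatty acid import and oxidation. It stood at a lower level per length than Acaca, at 6.33, 7.72, 6.37, 6.86, 5.995 and 7.25 FPKM in control libraries 1 to 6. Knockdown libraries 1 to 6 read 5.00, 5.49, 5.44, 5.74, 5.82 and 5.49 FPKM. All of these lay below the lowest control library, but the gap was narrow, and limma gave a change of −0.25 in log2 (SE 0.06, adjusted p = 0.00408). That size is about that of the 90th percentile given above for the term between arms, and against the minimum fold the adjusted p was 1. The ratio of Acaca to Acacb was 6.76 ± 1.57 in control and 5.43 ± 1.33 in knockdown libraries, a difference that was not past the threshold (exact permutation p = 0.141).

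Fasn (XLOC_006393, chromosome 11, 120805531 to 120824236) encodes fatty acid synthase, which builds palmitate, and had the highest control level per length of the 10 genes. Control libraries 1 to 6 read 168, 175, 153, 195, 152 and 126 FPKM. Knockdown libraries 1 to 6 read 119.8, 117, 116, 134, 119.6 and 109.8 FPKM, so 5 of them lay below the lowest control and library 4 lay above it. The mean fell by 26.1% (log2 fold change −0.42, SE 0.09, limma adjusted p = 0.00311), and Fasn did not pass against the minimum fold (adjusted p = 0.430). The ratio of Fasn to Acaca, the next step to the one before it, was 3.695 ± 0.889 and 4.15 ± 0.822 (exact permutation p = 0.342). The RefSeq window shown for Fasn lies beyond the end of the row's span, and its nearest base is 262 bases away. The row thus starts later than the RefSeq gene.

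Me1 (XLOC_035733, chromosome 9, 86581363 to 86699834) encodes cytosolic malic enzyme, which yields NADPH while returning carbon to pyruvate. Its control values were the tightest of the set, at 86.4, 86.9, 84.9, 88.2, 87.8 and 84.3 FPKM, a coefficient of variation of 1.81%. Knockdown libraries 1 to 6 read 60.9, 65.5, 63.1, 77.9, 75.4 and 66.1 FPKM, a wider spread of 10.1% that remained below every control value. The mean fell by 21.15% (log2 fold change −0.34, SE 0.06, limma adjusted p = 6.76e-04), though not against the minimum fold (adjusted p = 0.665). The ratio of Me1 to Fasn was 0.544 ± 0.0754 and 0.571 ± 0.0432, and this difference was not past the threshold (exact permutation p = 0.424).

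The glucose-sensing transcription factor did not follow the enzymes. Mlxipl (XLOC_026105, chromosome 5, 135106891 to 135138382) encodes ChREBP. It was the lowest of the 10 genes, at 4.95, 4.13, 5.16, 5.22, 4.12 and 4.01 FPKM in control libraries 1 to 6. Knockdown libraries 1 to 6 read 5.75, 4.79, 4.86, 3.16, 3.54 and 5.58 FPKM, with 2 above and 2 below the control range. Limma gave a change of −0.01 in log2 (SE 0.12, adjusted p = 0.945). The row's span begins at the downstream start site, 17001 bases after the upstream one shown above. In mouse adipose tissue the upstream first exon gives the shorter ChREBP-beta form, whose first exon lies outside this row.

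Mlx (XLOC_004671, chromosome 11, 101087277 to 101095436), the obligate partner of ChREBP in DNA binding, was the only gene of the 10 that rose. Control libraries 1 to 6 read 89.6, 77.35, 82.25, 86.05, 92.9 and 97.8 FPKM, and knockdown libraries 1 to 6 read 100.6, 87.5, 105, 94.1, 106 and 103.5 FPKM. The arms overlapped, with 4 knockdown libraries above the highest control. The log2 fold change of 0.18 (SE 0.07) had a limma adjusted p of 0.0436, which rose to between 0.0618 and 0.0897 on leaving out control library 1, 2, 3 or 4 or knockdown library 1, 3, 5 or 6, and to 1 against the minimum fold. The ratio of Mlxipl to Mlx was 0.0529 ± 0.00868 and 0.0465 ± 0.0107 (exact permutation p = 0.275). The Mlx row overlaps Psmc3ip on the other strand, which read 24.9 ± 1.96 and 22.4 ± 1.86 FPKM (limma adjusted p = 0.0932).

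The paralogues Thrsp and Mid1ip1 parted. Thrsp (XLOC_032034, chromosome 7, 97412938 to 97417730) encodes SPOT14, a small nuclear and cytosolic protein induced by thyroid hormone and carbohydrate that promotes lipogenesis. Control libraries 1 to 6 read 124, 104, 111, 120.2, 136 and 131 FPKM. Knockdown libraries 1 to 3 read 50.03, 49.0 and 55.0 FPKM, and knockdown libraries 4 to 6 read 74.9, 75.3 and 77.7 FPKM. All 6 lay below every control, and within the knockdown arm the values formed a lower and a higher set of 3. Zfp407 itself read 2.127, 1.933 and 1.792 FPKM in knockdown libraries 1 to 3. In knockdown libraries 4 to 6 it read 1.647, 1.604 and 1.624 FPKM. Thrsp was thus lower in the 3 knockdown libraries that kept more Zfp407. Whether the fall of Thrsp follows the depth of the knockdown was not tested. Which siRNA each library received is not marked, and no test compared the 2 sets. Thrsp had the largest fall of the 10 genes, with a mean that fell by 47.4% (log2 fold change −0.94, SE 0.13, limma adjusted p = 1.72e-04). Only 0.966% of all rows tested were as low or lower. It was also the only one of the 10 that the authors' deposited table marks as significant, with a log2 fold change of −0.93 and a q-value of 1.54e-09, where 1.59% of the rows the authors tested are so marked.

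Mid1ip1 (XLOC_036342, chromosome X, 10715013 to 10719703) encodes the SPOT14-related MIG12, which promotes the polymerisation and activity of acetyl-CoA carboxylase. Control libraries 1 to 6 read 44.6, 32.9, 35.3, 41.8, 41.0 and 49.6 FPKM, and knockdown libraries 1 to 6 read 36.5, 33.8, 39.05, 42.8, 40.0 and 37.9 FPKM. Every knockdown value fell inside the control range (log2 fold change −0.08, SE 0.09, limma adjusted p = 0.530). The ratio of Mid1ip1 to Thrsp separated the arms. It lay between 0.300 and 0.379 in control libraries and between 0.488 and 0.729 in knockdown libraries, with means of 0.337 ± 0.0296 and 0.620 ± 0.103 (log2 difference 0.87, exact permutation p = 0.00216; 0.00649 adjusted over the 6 ratios). The Mid1ip1 row overlaps the antisense gene Gm14493, which read 36.9 ± 2.42 and 34.9 ± 3.08 FPKM. Strand use was not given in the sources used here, so reads of the 2 genes cannot be told apart.

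**Figure D2:**
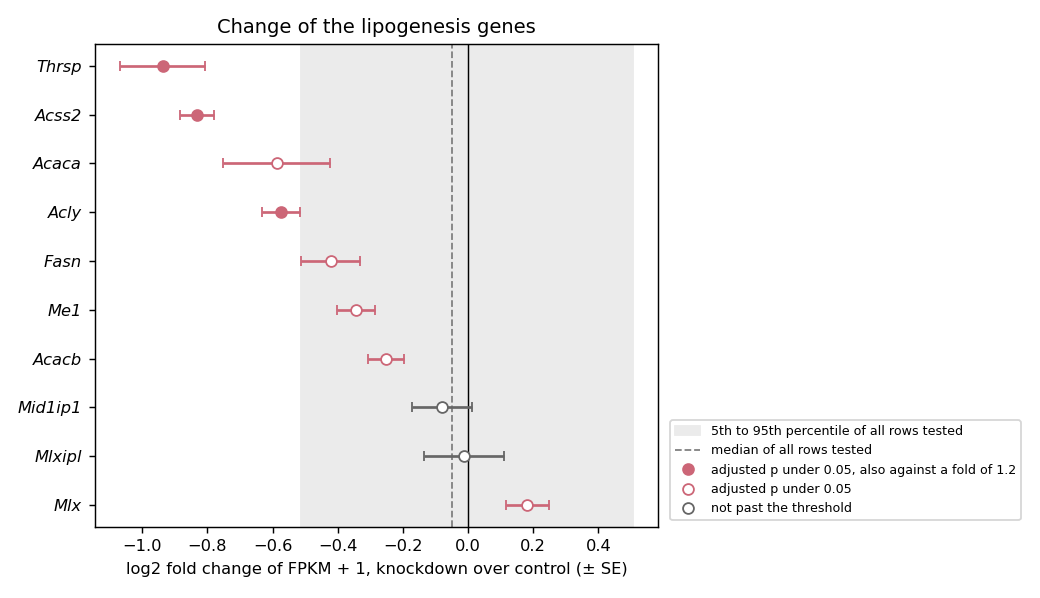
Log2 fold change of FPKM + 1 with its SE for each gene, over the 5th to 95th percentile (−0.51 to 0.51) and the median (−0.05) of all 14706 rows. Filled points (Thrsp, Acss2, Acly) also passed against a fold of 1.2, open red points passed only without a minimum fold, and Mid1ip1 and Mlxipl did not pass.

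**Figure D3:**
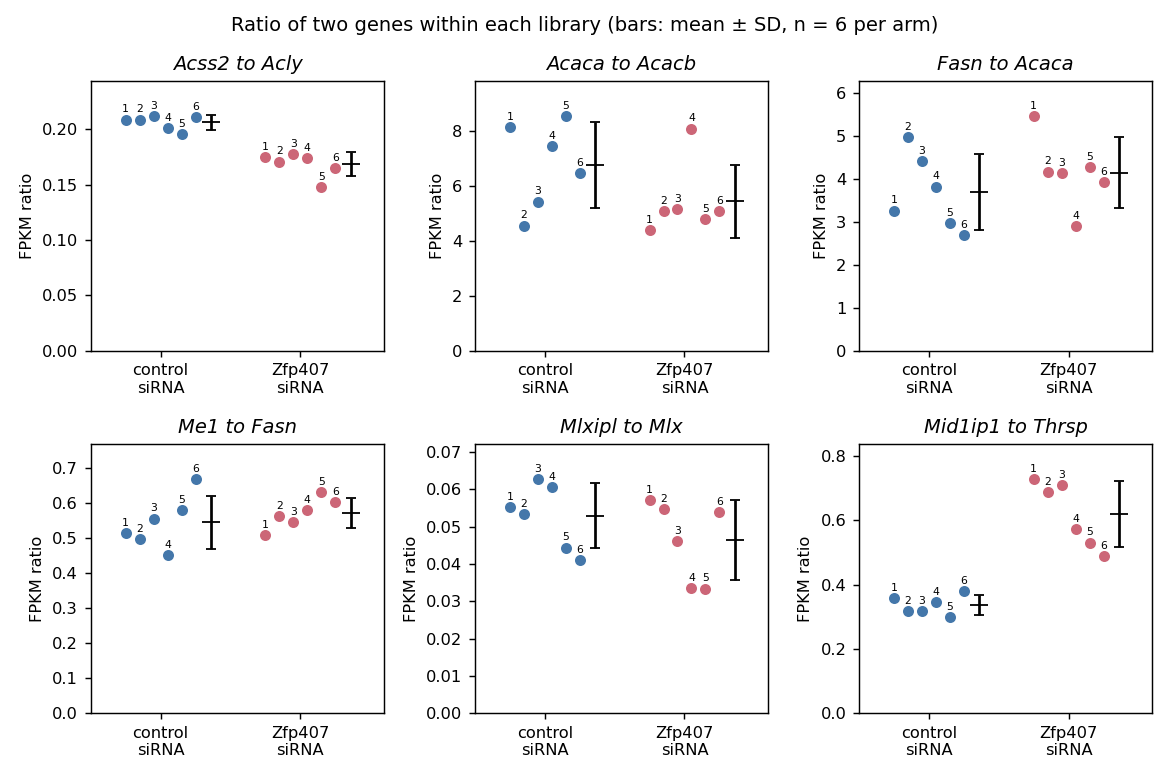
Ratios of the FPKM of 2 genes within each library, with mean ± SD (n = 6 per arm). The arms separate for Acss2 to Acly, lower after knockdown, and for Mid1ip1 to Thrsp, higher after knockdown; the other 4 ratios overlap.

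Within the arms some enzyme genes varied together and others did not. After each arm's mean was subtracted, Pearson's correlation of log2(FPKM + 1) over the 12 libraries was 0.89 between Me1 and Acly, 0.73 between Acaca and Acly, 0.72 between Acaca and Acss2 and 0.69 between Acss2 and Acly. Fasn stood at 0.60 with Acly and 0.25 with Acaca, and Acacb at 0.13, 0.08, 0.03 and 0.10 with Acly, Acss2, Acaca and Fasn. The median over all 45 pairs was 0.15. Mlxipl went the other way, at −0.81 with Me1 and −0.63 with Acly. Knockdown library 4 had the highest value of its arm for 6 of the 10 genes and the lowest for Mlxipl, so these values share single libraries as well as library scaling. Among 6084 protein-coding rows with a mean of at least 10 FPKM, the 3 most like Acly by this measure were Gpam (0.94), which starts triglyceride synthesis, Hadha (0.93), of mitochondrial fatty acid oxidation, and Apc (0.92). For Acaca they were Ttc39c (0.93), Oplah (0.90) and Dennd4c (0.87), and for Fasn Gtf3c1 (0.89), Siglec1 (0.89) and Myof (0.88). The authors mark the Apc row as failed.

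Genes around the pathway were taken from 7 lists by role, which were also chosen with earlier results of these data known. Of 92 list genes tested, 48 fell, 7 rose and 37 did not pass, with a median log2 fold change of −0.19 against −0.05 over all rows. The share that fell was 52.2%, against 24.8% of all rows and 29% of protein-coding rows, and the share that rose was 7.61%, against 11.6% and 9.21%. Against the minimum fold 8 passed lower and 0 higher, beside 3.69% and 2.13% of all rows. Scaled to nuclear protein-coding genes, 38 of the 92 fell and 11 rose, beside 2606 lower and 2560 higher over all rows. The lists hold 102 genes whose name matched a row. Names that matched none (such as Mpc1 and Mpc2) were not analysed here, which does not show that the gene has no row.

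In the supply of citrate and NADPH the genes that passed all fell. In citrate and acetyl-CoA supply 10 of 15 genes fell and none rose (median −0.25). Beside them, 24.8% of all rows fell and 11.6% rose, and 29% and 9.21% of protein-coding rows. Scaled to nuclear protein-coding genes, 9 of the 15 fell and 1 rose, beside 2606 lower and 2560 higher over all rows. Slc25a1, the mitochondrial citrate carrier that feeds ATP citrate lyase, fell from 294 ± 14.1 to 188 ± 23.9 FPKM (log2 fold change −0.65, limma adjusted p = 4.12e-05), and Pcx, pyruvate carboxylase, from 407 ± 29.8 to 298 ± 27.8 FPKM (log2 fold change −0.45). In cytosolic NADPH supply and related enzymes 8 of 10 genes fell and none rose (median −0.29). Beside these stood the same 24.8% and 11.6% of all rows, and 29% and 9.21% of protein-coding rows. Me2, 1 of the 8, was lost with all 3 scalings and in 8 of 12 fits that left out 1 library. Against the minimum fold 1 of the 10 passed (G6pdx). G6pdx, the entry enzyme of the pentose phosphate pathway, fell from 60.4 ± 0.997 to 39.4 ± 4.39 FPKM (log2 fold change −0.61, limma adjusted p = 1.39e-05), and Pgd, a later NADPH-yielding enzyme of it, from 69.2 ± 2.25 to 55.6 ± 3.10 FPKM.

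Of the transcriptional regulators 5 of 17 were lower and 3 higher (median −0.09), beside 29% lower and 9.21% higher among protein-coding rows, so the lower calls were at the background share. Scaled to nuclear protein-coding genes, 3 were lower and 4 higher, beside 2606 lower and 2560 higher over all rows. Nr1h3, the LXR alpha receptor that induces Srebf1, fell from 51.5 ± 5.397 to 32.1 ± 3.12 FPKM (log2 fold change −0.66, limma adjusted p = 8e-05). Insig1, which retains SREBP in the endoplasmic reticulum and is itself an SREBP target, fell with a log2 fold change of −0.82. Nr1h2 (LXR beta) and Ppargc1b, an SREBP1 coactivator, rose with log2 fold changes of 0.18 and 0.31. Srebf1 itself, named after its values were seen, was the third that rose, from 187 ± 21.2 to 219 ± 18.01 FPKM (log2 fold change 0.23, limma adjusted p = 0.0455). Its call was lost in 8 of 12 fits that left out 1 library, with limma adjusted p up to 0.0872. Of those fits it held only without control library 1, 3 or 4 or knockdown library 2, and all 3 scalings kept it. The SREBP1 row pools the 1a and 1c forms, and mRNA levels do not show processing of the protein. Mlxip, the ChREBP relative MondoA, also named after its values were seen, fell from 9.72 ± 0.542 to 8.38 ± 0.640 FPKM, a call lost when scaled to nuclear protein-coding genes.

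Of factors that activate or modify the enzymes 12 of 21 were lower and 1 higher (median −0.21), and none passed the minimum fold. Beside them, 24.8% of all rows were lower and 11.6% higher, and 29% and 9.21% of protein-coding rows. Scaled to nuclear protein-coding genes, 8 of the 21 were lower and 2 higher, beside 2606 lower and 2560 higher over all rows. Coasy, which completes coenzyme A, fell from 40.5 ± 1.83 to 32.5 ± 1.201 FPKM, and Sirt2, a deacetylase known to act on ATP citrate lyase, from 50.02 ± 2.71 to 39.4 ± 1.66 FPKM. Akt1, an insulin signalling kinase, rose from 107 ± 5.26 to 115 ± 1.70 FPKM (log2 fold change 0.10, limma adjusted p = 0.0438). This call was lost in 10 of 12 fits that left out 1 library (limma adjusted p up to 0.0902). Of those fits it held only without control library 3 or 4, and all 3 scalings kept it. Genes known as ChREBP targets from other tissues made a list of 7 tested, of which 4 fell and 1 rose (median −0.30). The shares were 24.8% and 11.6% of all rows, and 29% and 9.21% of protein-coding rows. Pnpla3 fell with a log2 fold change of −0.50 and Dak with −0.43, while Arrdc4, an arrestin-domain gene, rose with 0.35. Txnip, another classical ChREBP and MondoA target, named after its values were seen, read 658 ± 20.02 and 667 ± 35.1 FPKM (limma adjusted p = 0.774).

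Among genes that use malonyl-CoA or palmitate 6 of 15 fell and 1 rose (median −0.09). The shares were 24.8% and 11.6% of all rows, and 29% and 9.21% of protein-coding rows. Scd1, the main stearoyl-CoA desaturase, fell from 2972 ± 207 to 1499 ± 333 FPKM (log2 fold change −1.01, limma adjusted p = 8.58e-05), and Scd2 fell with a log2 fold change of −0.44. Acsl1, the main acyl-CoA synthetase of adipocytes, rose with 0.18, a call lost with quantile normalization. The separate mitochondrial (type II) fatty acid synthesis pathway, which makes the lipoic acid precursor, had 3 of 8 genes lower and 1 higher (median −0.22), beside 29% and 9.21% of protein-coding rows. Lias fell by 0.31 in log2 and Cbr4 by 0.33, and Ndufab1, its acyl carrier protein and a complex I subunit, rose with 0.38.

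**Figure D4:**
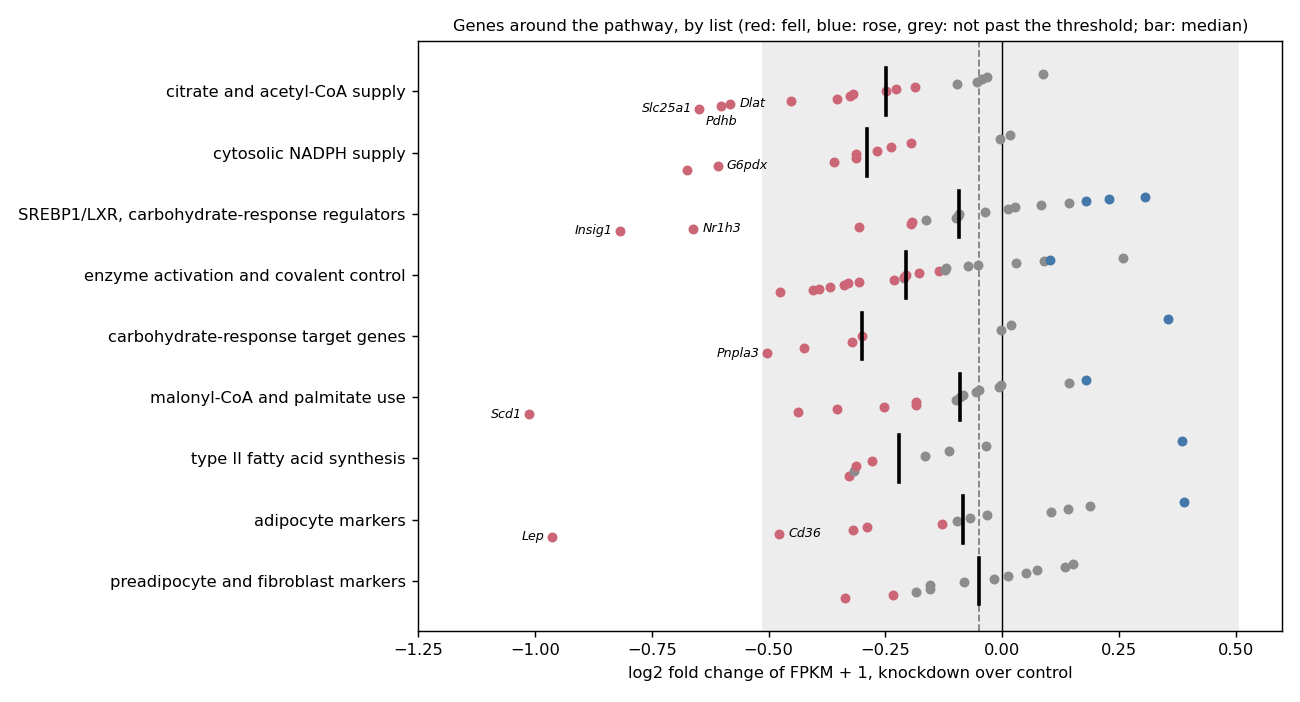
Log2 fold change of FPKM + 1 for every tested gene of the 7 pathway lists and 2 marker lists, red where it fell, blue where it rose and grey where it did not pass, with the median of each list as a bar. The shaded band is the 5th to 95th percentile of all rows and the dashed line their median; names mark genes that passed against a fold of 1.2, from Scd1 (−1.01) to Cd36 (−0.48).

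The libraries carried both adipocyte and preadipocyte markers. Adipoq read 3026 ± 289 and 2476 ± 233 FPKM (control and knockdown, SD over 6 libraries, limma adjusted p = 0.0168). Fabp4 read 9588 ± 1164 and 9413 ± 1468 FPKM (limma adjusted p = 0.849). Dlk1, which marks preadipocytes, read 881 ± 54.2 and 929.7 ± 92.0 FPKM in a row the authors mark as failed, and Pdgfra 49.6 ± 3.04 and 50.1 ± 3.91 FPKM. Cd34 stood at 0.188 ± 0.0491 and 0.211 ± 0.0911 FPKM. The sum over 12 adipocyte markers ran from 20043 to 24265 FPKM in control and from 18521 to 23320 FPKM in knockdown libraries. Of the 12, 5 were lower and 1 higher, beside 24.8% and 11.6% of all rows and 29% and 9.21% of protein-coding rows. With median centring 4 were lower and 2 higher, and scaled to nuclear protein-coding genes 4 and 3. Over all rows median centring gave 3146 lower and 2307 higher, and the protein-coding scaling 2606 and 2560. As single libraries were left out, the counts ran from 4 to 6 lower and from 1 to 3 higher. Among the adipocyte markers Cd36, a fatty acid carrier, and Lep, the hormone leptin, changed by −0.48 and −0.97 in log2, while Cebpa, an adipogenic factor, rose with 0.39. The other lower calls were Adipoq, Cfd and Cidec, of which Cidec was lost in 10 of 12 fits that left out 1 library. The sum over 13 preadipocyte and fibroblast markers ran from 3884 to 4273 and from 3285 to 4137 FPKM, with 2 of 12 tested lower, Col1a1 and Col3a1, and none higher, a lower share than over all rows. As single libraries were left out, that count ran from 0 (without control library 4) to 3 (without knockdown library 2). It was 1 lower and 1 higher with median centring, 0 and 0 with quantile normalization, and 0 lower and 1 higher when scaled to nuclear protein-coding genes. Over all rows quantile normalization gave 3252 lower and 2172 higher. The part of cell mixture in the changes of the lipogenesis genes was not tested.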

How the data were processed

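RNA was measured in 12 libraries. The authors deposited 1 table with an FPKM value per gene and library, an FPKM for either arm, and the authors' own comparison (log2 fold change, score, p-value and q-value). Cufflinks 2.0.2, SAMtools 0.1.18.0, TopHat2 2.0.5 and Bowtie2 2.0.0.7 are named per the submitters' processing notes. The build was not given in the sources used here. Among the 18473 rows with a GENCODE M21 protein-coding symbol 99.6% overlapped that gene on GRCm38, so the table's own spans are given on that build, counted from 1.

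With R 4.3.3, limma 3.58.1 was run on log2(FPKM + 1) (trend, two-sided, Benjamini-Hochberg over all 14706 rows with a mean of at least 1 FPKM, threshold 0.05), and with limma's treat against a fold of 1.2. Fold changes on this scale understate those of low genes. Adjusted p-values without another name are from limma. Single genes and ratios were tested by exact permutation over the 924 divisions of the libraries, for which the smallest p is 0.00216. The fits were checked on simulated data. Named list genes are up to 2 per direction and list with the smallest p. The members, lists and ratios were chosen with earlier results of these data known. Alternatives were the pseudocount, the filter, 3 scalings, protein-coding rows alone, each library left out and a block by column number. Every correlation between 2 libraries of an arm was at most 0.981, so no library was a copy of another.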

Additional observations from a re-analysis of the deposited data

Results flagged for a closer look

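Of 32 sets of 6 libraries examined (10 genes and 6 ratios in each arm), 2 held a library that stood apart from the others, where chance gives about 1 in 20. Acaca read 46.4 FPKM in knockdown library 4, while the other 5 knockdown libraries read between 21.9 and 27.97 FPKM. The ratio of Acaca to Acacb was 8.08 in the same library, and it comes from the same Acaca value.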

How the results depend on the processing

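The count of lower genes was 7 with every library left out, with either pseudocount, filter or scaling, over protein-coding rows and with the replicate block; against a minimum fold of 1.2 they were 3. The 1 higher gene, Mlx, kept its call without control library 5 or 6 or knockdown library 2 or 4, and lost it without any other single library. Mlx was also not called without a filter (limma adjusted p = 0.0647) or against the minimum fold. With the replicate block Mlx stayed called (limma adjusted p = 0.0111). It also did with median centring (0.014), quantile normalization (0.00426) and scaling to nuclear protein-coding genes (0.0021). The log2 fold change of Mlxipl, which was never past the threshold, turned positive with median centring (0.021), quantile normalization (0.002) and scaling to nuclear protein-coding genes (0.038), and ran from −0.07 to 0.069 as single libraries were left out. Over all rows, 3648 fell and 1712 rose (68.1% lower); the share lower was 57.7% with median centring, 60% with quantile normalization and 50.4% (2606 lower, 2560 higher) when scaled to nuclear protein-coding genes, which moved the median from −0.05 to 0.003. Protein-coding rows alone gave 928 higher, and the minimum fold 543 lower and 313 higher. Among the 92 list genes 38 fell and 11 rose with the protein-coding scaling, beside 2606 lower and 2560 higher of all 14706 rows. Against the minimum fold 8 list genes fell and 0 rose, beside 3.69% of all rows lower and 2.13% higher. Column numbers are shared by the arms but not by the labels' siRNA numbers: same-number correlations of deviations ran from −0.05 to 0.15, and not all passed 0.1. In a replicate block the ratios Acss2 to Acly (−0.294) and Mid1ip1 to Thrsp (0.868) had an adjusted exact permutation p of 0.0938, the smallest 6 sign changes can give over 6 ratios here. No gene has several rows, so summing rows was not run. Depth cannot be given from FPKM.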
